A study of Mus musculus with 15 samples.

Results

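RNA was sequenced from mouse embryonic fibroblasts, connective tissue cells grown from embryos, of 3 Actb genotypes: wild type (WT), heterozygote (HET) and knockout (KO). Actb is the gene of beta-actin. Described here are 9 genes of cytosolic RNA sensing and interferon signalling, taken as a named list from the 46603 Ensembl gene IDs in the count files: the RNA sensors Ddx58, Ifih1 and Dhx58, the adaptor Mavs, the interferon regulatory factors Irf1, Irf3 and Irf7, and the interferon-activated factors Irf9 and Stat2. All 9 were matched to 1 gene ID each, and all 9 passed the filter on low counts. Per the labels, the cells were of the BALB/c strain and came from embryos of 10.5 days, and all of them, controls included, were changed at confluence (day 0) to an osteogenic medium with dexamethasone and forskolin. The series set out to compare gene expression between the genotypes under this conversion toward osteoblasts. There were 5 groups of 3 libraries: WT and KO at day 4, and WT, HET and KO at day 14. There was no HET group at day 4. The labels do not say whether replicates came from separate embryos or cultures, so the p-values measure only the spread between these libraries, which may be technical.

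As background, Ddx58 encodes RIG-I and Ifih1 encodes MDA5, helicases that bind viral RNA in the cytosol, and both pass their signal to Mavs on the mitochondrial surface. Mavs activates kinases that phosphorylate Irf3 and Irf7, which then switch on the type I interferon genes. Secreted interferon acts through its receptor on STAT proteins, and Stat2 with Irf9 is part of ISGF3, a complex that activates interferon-stimulated genes at a promoter element called the ISRE. Several of the 9 genes are themselves known interferon-stimulated genes, Irf7 and Dhx58 among them.

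The libraries held 19878449 to 47486736 counts, and those of day 4 were the deepest. Levels are given in CPM, counts scaled to a common library size. Actb followed the labels. At day 4 its level was 1164 to 1193 CPM for WT against 129.9 to 138.6 CPM for KO. At day 14 it was 2947 to 3067 CPM for WT, 1437 to 1642 CPM for HET and 43.0 to 46.5 CPM for KO. HET replicate 2 stood apart. The chi-square of its counts, divided by the degrees of freedom, was 45.6 against HET replicate 1 and 45.8 against HET replicate 3, while these 2 gave 2.81. HET values are therefore also given without it. The WT libraries of day 14, the baseline of KO and HET at that day, gave 4.73 to 17.01, where the libraries within the remaining 3 groups gave 2.15 to 2.90. Leaving out any 1 of these WT libraries changed no call of the 9 genes. Of the osteoblast markers, Sp7, Bglap, Ibsp and Dmp1 held at most 4, 25, 3 and 4 counts in any group and were not tested. The other osteoblast markers were expressed and differed between groups: mean Alpl was 22.01 CPM for WT and 3.39 CPM for KO at day 4, and 127.7 CPM for WT, 8.29 CPM for HET and 31.96 CPM for KO at day 14. Mean Col1a1 was 107.1 CPM for WT and 769.7 CPM for KO at day 4, and 1004 CPM for WT, 1610 CPM for HET and 970.7 CPM for KO at day 14. The defining leukocyte marker Ptprc held at most 17 counts in a group and none at day 4.

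Promoter windows are shown for the members that hold a match to an interferon response motif, since several members are known targets of the factors that other members encode. Windows run from 250 bases before to 50 bases after a RefSeq transcript start (GRCm38.p6), and 8 of the 9 genes were matched, with 10 windows in all. The RefSeq starts of Ddx58, Irf7, Irf9, Stat2 and 1 of the 2 Irf1 windows differ from the start of the GENCODE gene model. Both Irf9 windows lie wholly past that start. The motifs searched were the ISRE core GAAANNGAA on both strands, the GAS core TTCNNNGAA, a STAT site that is its own reverse complement, and the IRF core AANNGAAA on both strands, which overlaps the ISRE core and was added after the sequences had been seen. Matches to any of them are in capitals, each window is written 5′ to 3′ on the strand of its gene, and the start follows base 250.
Ddx58, chr4:40239776-40240075, minus strand: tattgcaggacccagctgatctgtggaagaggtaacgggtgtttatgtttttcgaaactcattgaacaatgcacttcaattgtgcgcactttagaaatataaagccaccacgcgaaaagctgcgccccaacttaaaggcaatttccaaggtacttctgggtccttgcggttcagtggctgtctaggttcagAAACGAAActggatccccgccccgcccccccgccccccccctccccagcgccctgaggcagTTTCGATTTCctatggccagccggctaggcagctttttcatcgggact
Ifih1, chr2:62646206-62646505, minus strand: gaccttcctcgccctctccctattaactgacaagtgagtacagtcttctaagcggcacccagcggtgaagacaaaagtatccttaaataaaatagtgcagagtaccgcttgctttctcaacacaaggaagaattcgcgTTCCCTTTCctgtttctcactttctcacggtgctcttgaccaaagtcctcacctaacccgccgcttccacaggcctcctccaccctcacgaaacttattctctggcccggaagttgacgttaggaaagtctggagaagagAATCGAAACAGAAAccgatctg
Stat2, chr10:128270248-128270547, plus strand: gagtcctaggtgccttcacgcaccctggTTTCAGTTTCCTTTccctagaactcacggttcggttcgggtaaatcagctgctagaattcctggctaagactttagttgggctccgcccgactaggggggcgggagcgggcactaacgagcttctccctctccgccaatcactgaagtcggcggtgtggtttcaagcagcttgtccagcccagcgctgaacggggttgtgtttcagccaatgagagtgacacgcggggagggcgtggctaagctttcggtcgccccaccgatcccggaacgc
Irf1, chr11:53769764-53770063, plus strand: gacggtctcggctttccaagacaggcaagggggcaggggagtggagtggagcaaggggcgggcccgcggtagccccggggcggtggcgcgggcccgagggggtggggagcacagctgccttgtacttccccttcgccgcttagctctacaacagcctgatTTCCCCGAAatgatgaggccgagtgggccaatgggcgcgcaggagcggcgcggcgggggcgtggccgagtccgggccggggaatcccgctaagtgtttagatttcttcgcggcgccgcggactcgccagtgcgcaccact
The ISRE core occurred once in Ddx58, 3 bases past the start, at 2 places in Ifih1, 112 bases before and 32 bases past the start, and once in Stat2, 221 bases before it. The IRF core occurred at 2 places in each of those 3 windows. The GAS core occurred only in 1 of the 2 windows of Irf1, 90 bases before the start, and no motif was found in the windows of Mavs, Irf3, Irf7 and Irf9. For Irf9 the sequence before the GENCODE start was not searched. Of 32851 windows of the same length, 8.60% held the ISRE core, 23.9% the IRF core and 8.30% the GAS core. These matches are descriptions of letters, and binding was not measured.

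Ddx58 (ENSMUSG00000040296, chromosome 4: 40203773-40239828, minus strand) was lowest at day 4 and highest in KO and HET cells at day 14. At day 4 its levels were 24.3, 26.4 and 27.0 CPM in WT and 23.1, 19.4 and 22.6 CPM in KO. At day 14 they were 71.8, 70.0 and 61.8 CPM in WT, 114.2, 85.8 and 117.2 CPM in HET, and 116.7, 114.0 and 121.1 CPM in KO. All HET and KO libraries of day 14 thus lay above all WT libraries, and the HET and KO ranges overlapped. By edgeR's quasi-likelihood test, used throughout with Benjamini-Hochberg adjustment over 15296 genes, Ddx58 rose in KO against WT at day 14 (log2 fold change 0.79 ± 0.10 SE, adjusted p = 6.18e-06) and in HET against WT (0.64 ± 0.10, adjusted p = 5.79e-05). The KO against HET difference of 0.15 ± 0.10 did not pass (adjusted p = 0.218). At day 4 KO was lower than WT by edgeR (log2 fold change -0.25 ± 0.11, adjusted p = 0.0476), a call that was lost without WT replicate 2 or 3 or KO replicate 2 or 3 of that day (adjusted p up to 0.193). From day 4 to day 14 Ddx58 rose in WT by 1.39 ± 0.11 and in KO by 2.43 ± 0.11 on the log2 scale.

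Ifih1 (ENSMUSG00000026896, chromosome 2: 62595798-62646255, minus strand), the sensor of long double-stranded RNA, differed more between days in its KO against WT change than the other 8 members. The day 4 libraries held 34.6, 38.4 and 36.2 CPM in WT but 3.53, 4.06 and 3.93 CPM in KO. The day 14 libraries held 33.3, 35.0 and 31.1 CPM in WT, 79.9, 62.8 and 78.7 CPM in HET, and 65.8, 69.7 and 66.4 CPM in KO. KO libraries were thus the lowest at day 4 and all above WT at day 14. KO was 9.46-fold lower than WT at day 4 (log2 fold change -3.24 ± 0.10, edgeR adjusted p = 2.05e-13), and at day 14 Ifih1 rose in KO by 1.02 ± 0.09 (edgeR adjusted p = 5.55e-08) and in HET by 1.16 ± 0.09 (edgeR adjusted p = 1.38e-08). WT did not pass a test of change over time (log2 fold change -0.14 ± 0.09, edgeR adjusted p = 0.17), but was called lower when only the groups compared were fitted (-0.19, edgeR adjusted p = 0.0327). In KO Ifih1 rose 17.5-fold (4.13 ± 0.10). KO against HET did not pass with all libraries (-0.13 ± 0.08, edgeR adjusted p = 0.183) but passed without HET replicate 2 (-0.24, edgeR adjusted p = 0.00216).

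Dhx58 (ENSMUSG00000017830, chromosome 11: 100694884-100704271, minus strand) encodes LGP2, a relative of the other sensors that lacks their signalling domains and modulates them. Its 3 KO libraries of day 4 held 57, 22 and 51 reads, or 1.72, 0.704 and 1.403 CPM, against 4.69, 4.23 and 3.75 CPM in WT. By day 14 levels had reached 21.1, 21.3 and 23.7 CPM in WT, 94.9, 103.5 and 103.1 CPM in HET, and 60.3, 59.2 and 54.1 CPM in KO. No 2 of the 5 groups overlapped, with HET at the top and KO of day 4 at the bottom, 78.8 times apart in mean CPM. Dhx58 fell in KO against WT at day 4 (log2 fold change -1.73 ± 0.19, edgeR adjusted p = 5.15e-07), and rose at day 14 in KO by 1.39 ± 0.12 (edgeR adjusted p = 5.99e-08) and in HET by 2.19 ± 0.12 (edgeR adjusted p = 3.49e-10). KO was below HET (-0.80 ± 0.11, edgeR adjusted p = 1.53e-05). Over time the gene rose by 2.37 ± 0.14 in WT and by 5.49 ± 0.16 in KO, which is 44.8-fold. Its exons share 141 bases, 4.31% of their length, with Dhx58os, a gene on the opposite strand, whose reads an unstranded kit does not separate.

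**Figure D1:**
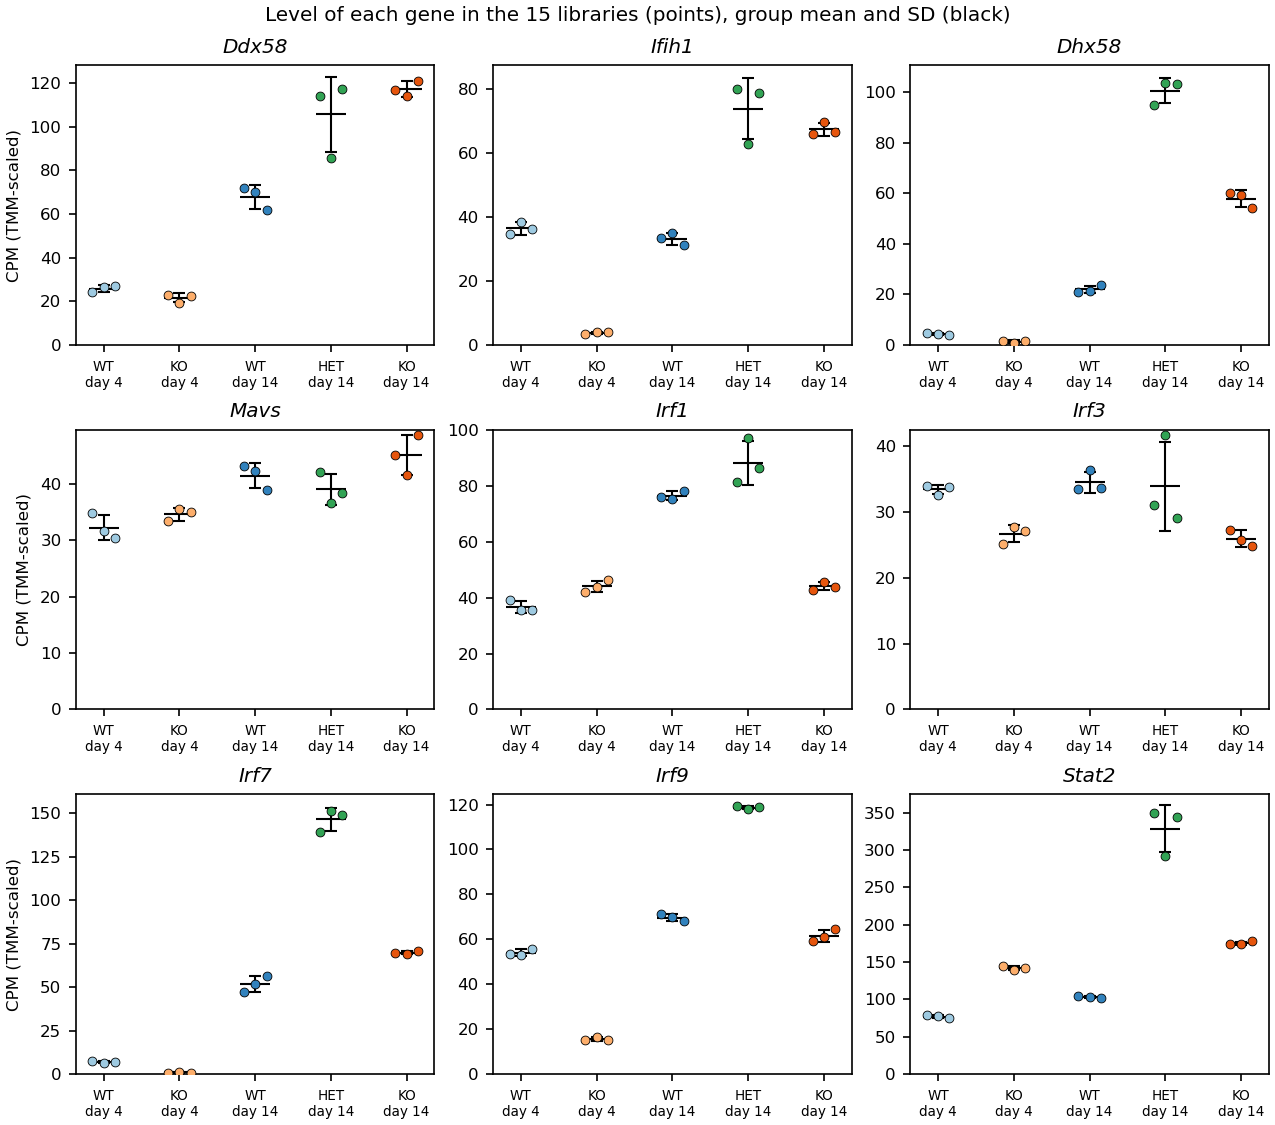
Level of each of the 9 genes in every library, in CPM on a linear axis from 0 (y), by group (x), with 3 points per group and the group mean and SD in black. The KO libraries of day 4 lie lowest for Ifih1, Dhx58, Irf7 and Irf9, and narrowly for Ddx58. The HET libraries of day 14 lie highest for Dhx58, Irf7, Irf9 and Stat2, and narrowly for Irf1. Mavs and Irf3 stay within a narrow range.

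Mavs (ENSMUSG00000037523, chromosome 2: 131234063-131248025, plus strand) varied little, with its highest group mean 1.399 times its lowest. At day 4 it was at 34.8, 31.6 and 30.4 CPM in WT and 33.4, 35.6 and 35.0 CPM in KO. At day 14 it was at 43.2, 42.3 and 39.0 CPM in WT, 42.1, 36.6 and 38.4 CPM in HET, and 45.2, 41.6 and 48.7 CPM in KO. Genotype groups overlapped at each day. KO against WT did not pass at day 14 (0.12 ± 0.08) or at day 4 (0.10 ± 0.08), with edgeR adjusted p of 0.18 and 0.256, and neither did HET against WT (-0.09 ± 0.08, edgeR adjusted p = 0.358). With KO against HET the test passed at 0.21 ± 0.08 (edgeR adjusted p = 0.0288), but the libraries of the 2 groups overlapped, and the call was lost without HET replicate 2 (0.17, edgeR adjusted p = 0.0634), without HET replicate 3, and without KO replicate 1 or 3. Both genotypes rose slightly with time, by 0.36 ± 0.08 in WT (edgeR adjusted p = 0.000525) and 0.38 ± 0.08 in KO (edgeR adjusted p = 0.000414).

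Irf1 (ENSMUSG00000018899, chromosome 11: 53770014-53778374, plus strand), a factor induced by interferon gamma, differed from the sensors in its pattern. It stood at 39.2, 35.5 and 35.5 CPM in WT and 42.1, 43.8 and 46.2 CPM in KO at day 4. By day 14 WT libraries were at 75.9, 75.1 and 78.2 CPM and HET libraries at 81.3, 96.9 and 86.2 CPM, while KO libraries were at 42.9, 45.6 and 43.9 CPM. Irf1 thus rose in WT, by 1.06 ± 0.07 (edgeR adjusted p = 1.1e-09), and did not pass in KO, where the log2 fold change was 0.00 ± 0.07 (edgeR adjusted p = 0.973). KO was below WT at day 14 (-0.79 ± 0.07, edgeR adjusted p = 7.92e-08) and below HET (-0.997 ± 0.07, edgeR adjusted p = 5.72e-09). At day 4 KO was above WT by 0.26 ± 0.07 (edgeR adjusted p = 0.00307). HET was above WT by 0.21 ± 0.07 (edgeR adjusted p = 0.016) with all 3 libraries, but not without HET replicate 2 (0.13, edgeR adjusted p = 0.0527). Its exons share 135 bases, 3.40% of their length, with Gm17334 on the opposite strand.

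Irf3 (ENSMUSG00000003184, chromosome 7: 44997648-45002848, plus strand), present in most cells before infection, was at 33.9, 32.7 and 33.8 CPM in WT and 25.2, 27.7 and 27.2 CPM in KO at day 4. The day 14 values were 33.4, 36.4 and 33.7 CPM in WT, 31.1, 41.6 and 29.0 CPM in HET, and 27.3, 25.8 and 24.8 CPM in KO. KO libraries lay below WT at both days. The gene fell in KO at day 4 (-0.33 ± 0.10, edgeR adjusted p = 0.00946) and at day 14 (-0.41 ± 0.10, edgeR adjusted p = 0.00294), with no change over time that passed in either genotype. HET against WT gave -0.03 ± 0.10 (edgeR adjusted p = 0.844), and -0.20 without HET replicate 2 (edgeR adjusted p = 0.0206). KO against HET gave -0.38 ± 0.11 (edgeR adjusted p = 0.00505), and -0.21 without that library (edgeR adjusted p = 0.0163). Its exons share 88 bases, 2.56% of their length, with Bcl2l12 on the opposite strand.

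Irf7 (ENSMUSG00000025498, chromosome 7: 141262706-141266481, minus strand), which amplifies interferon alpha transcription, had the widest range of the 9. The day 4 libraries held 7.27, 6.47 and 7.12 CPM in WT and 0.815, 1.15 and 0.715 CPM in KO, the latter from 27, 36 and 26 reads. The day 14 libraries held 47.3, 51.8 and 56.3 CPM in WT, 139.0, 151.6 and 149.3 CPM in HET, and 69.4, 69.2 and 70.7 CPM in KO. No groups overlapped, and the highest group mean was 164 times the lowest. KO was 7.82-fold lower than WT at day 4 (-2.97 ± 0.13, edgeR adjusted p = 1.27e-11), but rose against WT at day 14 by 0.43 ± 0.08 (edgeR adjusted p = 0.000198). HET rose by 1.501 ± 0.08 against WT (edgeR adjusted p = 2.5e-10), and KO was below HET (-1.07 ± 0.08, edgeR adjusted p = 9.93e-09). From day 4 to day 14 Irf7 rose by 2.90 ± 0.09 in WT and by 6.29 ± 0.12 in KO, 78.5-fold. Its exons share 45 bases, 1.19% of their length, with Phrf1 on the opposite strand.

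Irf9 (ENSMUSG00000002325, chromosome 14: 55603571-55610030, plus strand), the DNA-binding part of ISGF3, was at 53.3, 53.1 and 55.9 CPM in WT and 14.97, 16.4 and 15.3 CPM in KO at day 4. At day 14 it was at 71.2, 69.8 and 67.9 CPM in WT, 119.3, 117.8 and 118.7 CPM in HET, and 59.1, 60.8 and 64.5 CPM in KO. KO was lower at day 4 (-1.80 ± 0.06, edgeR adjusted p = 1.67e-13) and at day 14 (-0.18 ± 0.05, edgeR adjusted p = 0.00801), where the call was lost with no filter on low counts (-0.14, edgeR adjusted p = 0.264). HET rose by 0.77 ± 0.05 (edgeR adjusted p = 5.01e-09), and KO was below HET (-0.95 ± 0.05, edgeR adjusted p = 4.3e-10). Over time Irf9 rose by 0.37 ± 0.05 in WT and 1.98 ± 0.06 in KO. Its exons share 123 bases, 2.28% of their length, with Rnf31 on the same strand.

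Stat2 (ENSMUSG00000040033, chromosome 10: 128270559-128292849, plus strand), the STAT of the same complex, was in contrast higher in KO at both days. WT libraries of day 4 held 79.2, 77.3 and 74.3 CPM and KO libraries 144.2, 139.6 and 141.4 CPM. At day 14 WT held 105.0, 103.3 and 102.4 CPM, HET 349.0, 291.8 and 344.6 CPM, and KO 174.0, 173.7 and 177.6 CPM. No groups overlapped. KO rose against WT by 0.88 ± 0.06 at day 4 (edgeR adjusted p = 2.03e-09) and by 0.76 ± 0.06 at day 14 (edgeR adjusted p = 2.65e-08), and HET by 1.67 ± 0.06 (edgeR adjusted p = 3.7e-12), while KO was below HET (-0.91 ± 0.06, edgeR adjusted p = 2.92e-09). The gene rose with time by 0.43 ± 0.06 in WT and 0.31 ± 0.06 in KO. Within ISGF3 the directions differed, since at day 4 Irf9 was lower and Stat2 higher in KO.

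**Figure D2:**
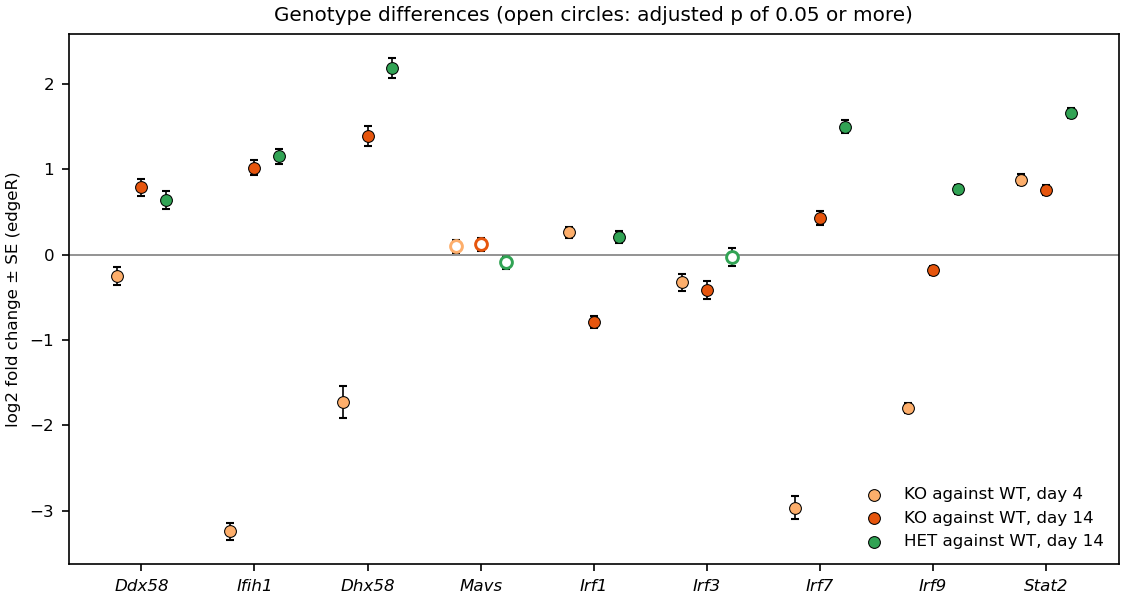
Log2 fold change (y, bars are SE) of the 9 genes (x) in KO against WT at each day and HET against WT at day 14, with open circles where the edgeR adjusted p was 0.05 or more. At day 4 Ifih1, Dhx58, Irf7 and Irf9 sit furthest below 0 and Stat2 is above it, and at day 14 HET against WT sits above 0 for all members but Mavs and Irf3.

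The test of whether the KO against WT difference itself differed between days passed for 6 of the 9 genes. This log2 difference of differences, day 14 minus day 4, was 1.04 ± 0.15 for Ddx58, 4.26 ± 0.13 for Ifih1, 3.12 ± 0.22 for Dhx58, 3.40 ± 0.16 for Irf7, 1.62 ± 0.08 for Irf9 and -1.05 ± 0.10 for Irf1. It did not pass for Mavs (0.02 ± 0.11), Irf3 (-0.09 ± 0.15) or Stat2 (-0.12 ± 0.08). The sensors, Irf7 and Irf9 were thus raised in KO relative to WT by day 14 compared with day 4, and Irf1 was lowered, by edgeR at adjusted p from 4.72e-13 to 1.37e-05. Of all genes tested, 30.7% had a higher and 34.0% a lower difference, so 5 higher and 1 lower of 9 are to be read against those shares.

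Counted over the 9 genes, KO against WT at day 14 gave 5 higher (Ddx58, Ifih1, Dhx58, Irf7, Stat2) and 3 lower (Irf1, Irf3, Irf9), or 55.6% and 33.3%, where 30.9% of all genes were higher and 32.2% lower. HET against WT gave 7 higher and 0 lower, against 28.3% and 29.9% of all genes. Without HET replicate 2 the 7 called members were 6 higher and 1 lower, with Irf1 no longer called and Irf3 lower. The other log2 fold changes of HET against WT without that library were 0.77 for Ddx58, 1.26 for Ifih1, 2.17 for Dhx58, -0.04 for Mavs, 1.48 for Irf7, 0.77 for Irf9 and 1.74 for Stat2, and all but Mavs stayed called. KO against HET gave 1 higher and 6 lower, against 29.4% and 30.1% of all genes, and 0 higher and 7 lower without HET replicate 2. Without it the KO against HET values were 0.02 for Ddx58, -0.78 for Dhx58, -0.93 for Irf1, -1.05 for Irf7, -0.95 for Irf9 and -0.99 for Stat2. KO against WT at day 4 gave 2 higher (Irf1, Stat2) and 6 lower, against 35.7% and 33.8% of all genes. Day 14 against day 4 gave 7 higher and 0 lower in WT, where 39.7% of all genes were higher and 34.9% lower, and 7 higher and 0 lower in KO, where the shares were 30.8% and 30.1%. The median log2 fold change of the 9 genes was 0.43, 0.77 and -0.80 for the day 14 comparisons in the order given, where that of all genes was -0.02, -0.02 and -0.01. It was -0.33 against 0.03 at day 4, 0.43 against 0.08 over time in WT and 1.98 against 0.00 in KO. KO and HET at day 14 were compared with the same WT libraries, and the KO libraries of day 14 enter 4 of the 7 comparisons. In bulk RNA, fewer cells of a type and less RNA per cell cannot be told apart.

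Levels were also set per kilobase of exon, with the exons of all annotated transcripts of a gene joined. For Irf7 the joined length of 3776 bases spans the whole gene, introns included, so comparisons between genes are only approximate. By this measure the 9 genes changed order between groups. In WT at day 4 Stat2 led at 12.98 CPM per kb, followed by Irf9 at 10.0 and Irf3 at 9.71, with Dhx58 lowest at 1.29 CPM per kb. In KO at day 4 Stat2 was at 23.9 CPM per kb while Irf7, Dhx58 and Ifih1 were at 0.237, 0.390 and 0.471 CPM per kb. In HET at day 14 Stat2 reached 55.4, Irf7 38.8 and Dhx58 30.7 CPM per kb, and in KO at day 14 the same genes were at 29.6, 18.5 and 17.7 CPM per kb. Mavs and Irf3 stayed between 7.54 and 13.5 CPM per kb in all 5 groups.

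**Figure D3:**
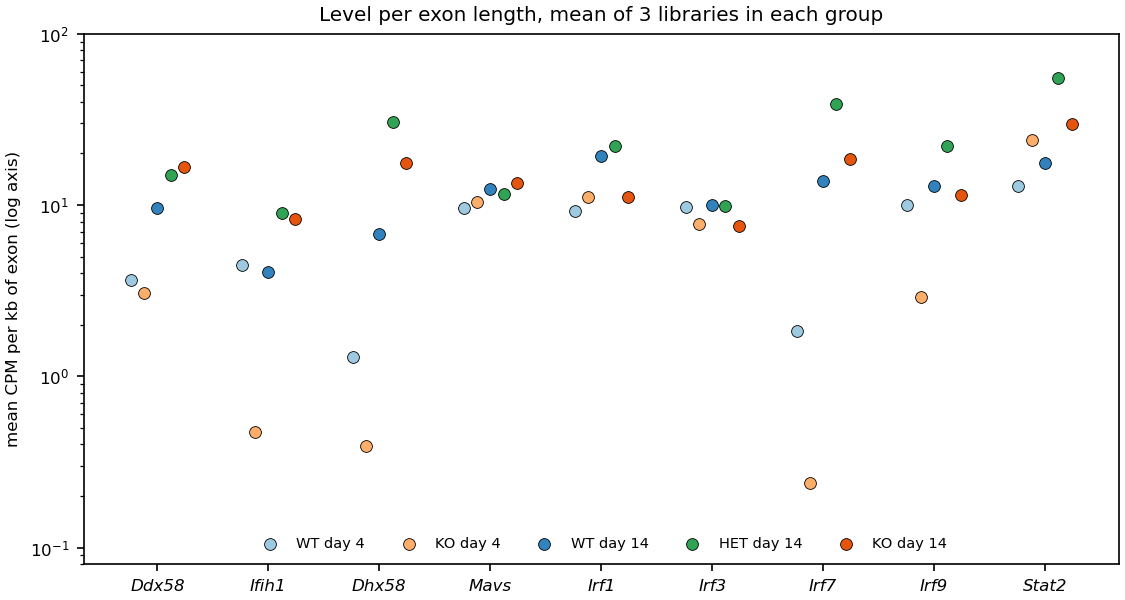
Mean level of the 9 genes (x) in CPM per kb of exon (y, log axis), with 1 point per group of 3 libraries. Stat2 is at 23.9 CPM per kb in KO of day 4, where Irf7, Dhx58 and Ifih1 are all below 0.5.

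Across the 15 libraries the members varied together to different degrees. Of 36 pairs, 21 had a Pearson correlation of log2 CPM above 0.5 and 3 below 0, with a median of 0.59. The highest were Dhx58 with Irf7 (0.97), Ddx58 with Dhx58 (0.97), Ifih1 with Irf9 (0.94) and Irf7 with Irf9 (0.94). The lowest were Mavs with Irf3 (-0.23) and Irf3 with Stat2 (-0.18), and Irf9 with Stat2 was at 0.37. These are descriptions over 15 libraries that share 5 groups, so the group means set most of each value.

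**Figure D4:**
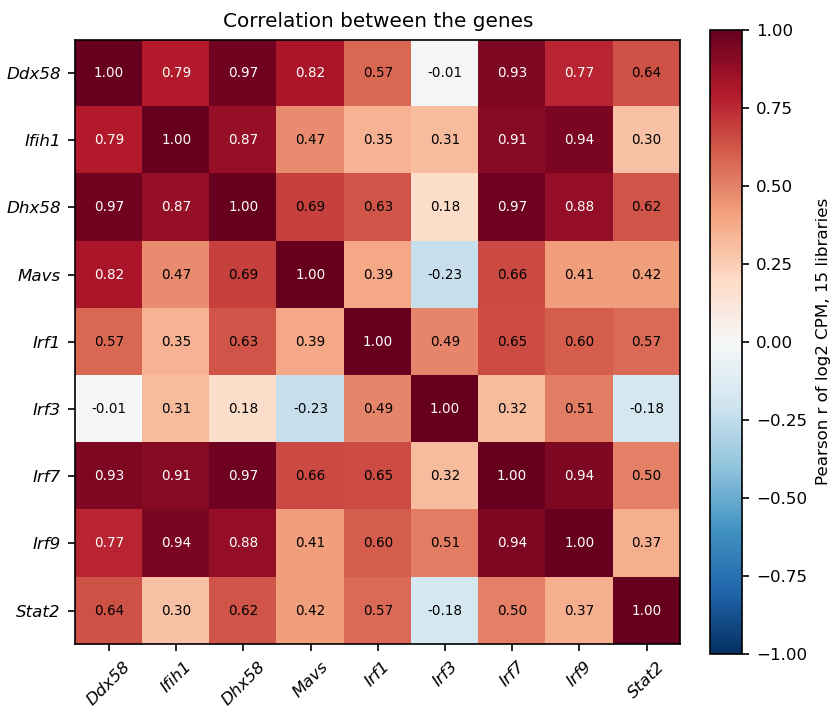
Pearson correlation of log2 CPM over the 15 libraries for each pair of the 9 genes, coloured from blue (negative) to red (positive). The cells of Dhx58 with Irf7 (0.97) and Ifih1 with Irf9 (0.94) are among the darkest red, and those of Irf3 with Mavs (-0.23) and Stat2 (-0.18) are blue.

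Among 10495 other genes with at least 10 CPM in some group, those most like each member by the same measure included known interferon-stimulated genes for several of them. Irf7 was closest to Gbp3 (0.996) and Ddx60 (0.994), Dhx58 to Oas3 (0.994) and Trim21 (0.993), and Ifih1 to Tmem45a (0.987) and Rsad2 (0.982). Ddx58 was closest to Slc39a1 (0.990) and Soat2 (0.988), Irf9 to Bicc1 (0.989) and Ecscr (0.982), and Stat2 to Lrrk1 (0.988) and Slc6a2 (0.984). For Irf1 the closest were Gpsm3 (0.986) and C1ra (0.980), for Mavs Pgap2 (0.941) and Flnc (0.938), and for Irf3 Anapc16 (0.954) and Rps3 (0.954).

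The ISGF3 target genes, a list of 20 antiviral genes that includes the Ifit, Oas and Mx families, all passed the filter. At day 4, 1 of them was higher and 18 were lower in KO (5% and 90%, against 35.7% and 33.8% of all genes). The median log2 fold change was -3.39 when genes with no count in KO are set at their bound. At day 14, 16 were higher and 2 lower in KO against WT (median 1.01), or 80% and 10%, against 30.9% and 32.2% of all genes. In HET against WT 19 were higher and 0 lower (median 2.33, also 19 and 0 without HET replicate 2), or 95% and 0%, against 28.3% and 29.9%. In KO against HET 3 were higher and 17 lower, or 15% and 85%, against 29.4% and 30.1%. Over time 19 of 20 were higher in KO (95%, against 30.8% of all genes). In WT 15 were higher and 2 lower (75% and 10%, against 39.7% and 34.9%). Rsad2, which encodes viperin, rose in KO against WT by 2.67 ± 0.09 at day 14 (edgeR adjusted p = 9.84e-13), Ifi44 rose by 2.74, and Oas2 rose in HET by 7.92. Rsad2 held so few reads in KO at day 4 that WT exceeded KO by a ratio of 2192 (95% counting interval 606 to 18100). Mx1 and Cmpk2 held no counts in KO at day 4, and their WT levels were at least 10.5-fold and 79.9-fold higher with KO set at 3 counts for the group. Bst2 (-0.61) and Cxcl10 (-0.49) fell in KO against WT at day 14. The 18 lower targets of day 4 moved in the same direction as Ifih1, Dhx58, Irf7 and Irf9.

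**Figure D5:**
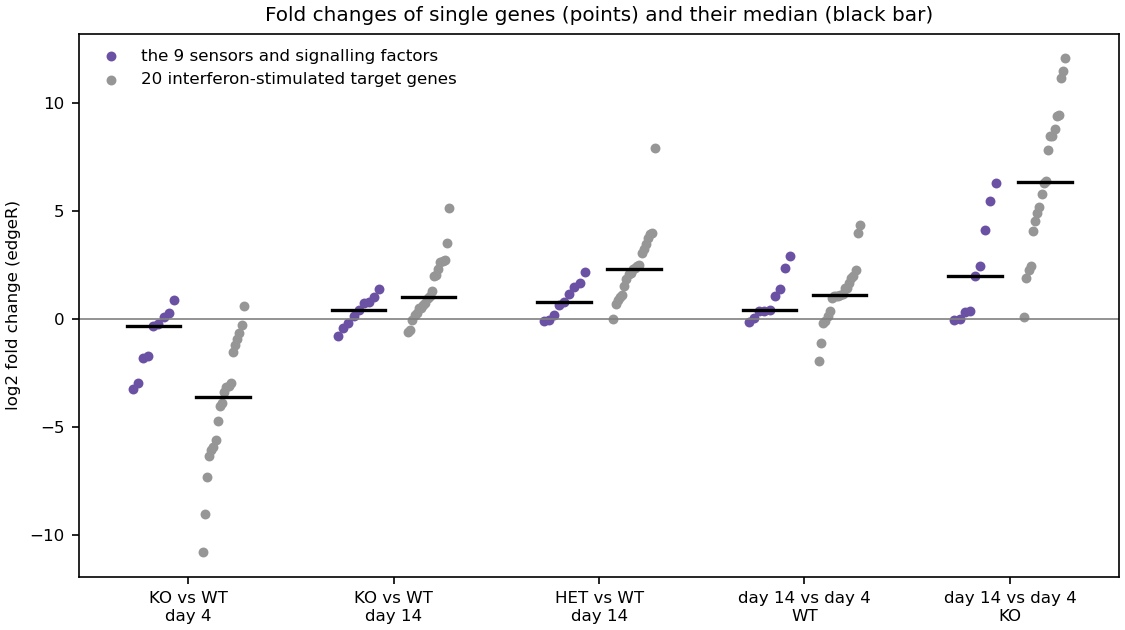
Log2 fold change (y) of each of the 9 members (purple) and the 20 ISGF3 target genes (grey), with black bars at the medians of the fitted values, for the 3 comparisons with WT and for day 14 against day 4 in WT and KO (x). In KO against WT at day 4, 18 of the 20 targets and 6 of the 9 members are lower, as are 33.8% of all genes. In HET against WT 19 of the 20 and 7 of the 9 are higher, as are 28.3% of all genes.

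No interferon gene passed the filter. Of 21 listed ligand genes, 15 to 19 held no count in each group, and the counted ones summed to 0.220 to 0.631 CPM per library. Ifnb1 held at most 10 counts in any group, Ifna4 11, Ifnz 41 and Ifng 2. Transcript levels of the ligands were therefore too low at this depth to be compared. Among the 11 receptor and JAK-STAT genes, 3 were higher and 3 lower in KO against WT at day 14 (27.3% each, where 30.9% and 32.2% of all genes were higher and lower). In HET against WT 5 were higher and 2 lower (45.5% and 18.2%, against 28.3% and 29.9% of all genes). Stat3 was up by 0.91 in KO and 1.00 in HET. Jak2 fell in both (-0.45 and -0.68).

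Around the sensors, 20 RIG-I-like receptor cofactors and regulators were listed, activators and inhibitors among them. At day 14, 10 were higher and 6 lower in KO against WT (50% and 30%, against 30.9% and 32.2% of all genes). The 20 genes gave the same counts in HET against WT, where 28.3% and 29.9% of all genes were higher and lower. At day 4 they gave 6 higher and 10 lower in KO (30% and 50%, against 35.7% and 33.8% of all genes). Trim25, the ubiquitin ligase that activates RIG-I, moved in the same directions as Ifih1 and Dhx58: it fell in KO at day 4 (-1.95 ± 0.08, edgeR adjusted p = 7.06e-12) and rose by 0.93 in KO and 1.24 in HET at day 14. Ddx60, a helicase that works with RIG-I, rose by 2.30 in HET, and it held no count in KO at day 4, so that WT was at least 34.9-fold higher. Nlrx1, a mitochondrial inhibitor of Mavs, fell in KO at day 14, with WT exceeding KO by a ratio of 60.9 (95% counting interval 20.5 to 298). The 18 adaptors and kinases downstream of Mavs gave 5 higher and 4 lower in KO at day 14, or 27.8% and 22.2%, which is not above the shares of all genes (30.9% and 32.2%). In HET they gave 8 higher and 2 lower, or 44.4% and 11.1%, against 28.3% and 29.9%. Tbk1, the kinase of Irf3, rose in HET by 0.56, and Tbkbp1, which binds it, fell in KO (-4.79).

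The other nucleic acid sensors (15 of 18 tested) gave 9 higher and 4 lower in KO at day 14 (60.0% and 26.7%, against 30.9% and 32.2% of all genes). In HET they gave 11 higher and 2 lower at day 14 (73.3% and 13.3%, against 28.3% and 29.9% of all genes). In KO at day 4 they gave 6 higher and 4 lower (40.0% and 26.7%, against 35.7% and 33.8% of all genes). Sting1, the adaptor of cytosolic DNA sensing, was at 16.4, 16.6 and 15.04 CPM in WT and 2.54, 1.76 and 1.403 CPM in KO at day 4. At day 14 it was at 20.6 to 21.5 CPM in WT, 106.0 to 109.3 CPM in HET and 29.7 to 33.1 CPM in KO. It was lower in KO at day 4 (-3.08 ± 0.13, edgeR adjusted p = 4.83e-12), as were 6 of the 9 members, and higher in HET at day 14 (2.34 ± 0.10, edgeR adjusted p = 2.17e-11), as were 7 of the 9. Irf8, a factor of myeloid cells, was lower than in WT in KO at day 4 (-6.12, edgeR adjusted p = 3.03e-09) and at day 14 (-8.25, edgeR adjusted p = 1.81e-10), and in HET at day 14 (-4.93). Mean Irf8 in KO was only 0.101 CPM at day 4 and 0.0894 CPM at day 14, against 7.17 and 27.3 CPM in WT. The sizes of its KO changes are therefore imprecise. Of 12 negative regulators, 1 was higher and 5 lower in KO at day 14 (8.33% and 41.7%, against 30.9% and 32.2% of all genes). In HET at that day 7 were higher and 2 lower (58.3% and 16.7%, against 28.3% and 29.9% of all genes). Usp18, which restrains signalling at the interferon receptor, rose in HET by 2.52 ± 0.12 (edgeR adjusted p = 6.67e-11) and fell in KO at day 4 (-4.77), while its 0.28 in KO at day 14 did not pass (edgeR adjusted p = 0.0526), a value that passed under 5 alternatives, among them DESeq2 (adjusted p = 0.0361) and edgeR without WT replicate 3 of day 14 (0.41, adjusted p = 0.0102).

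Markers of other cell types moved with some of these groups. The summed level of 11 haematopoietic markers was 36.9 to 39.4 CPM in WT, 141.1 to 176.0 CPM in HET and 119.0 to 126.4 CPM in KO at day 14, and 79.8 to 84.4 CPM in WT and 84.0 to 87.3 CPM in KO at day 4. Most of it was Cd14 (29.0 CPM in WT, 145.7 CPM in HET and 81.6 CPM in KO at day 14) and Cd68 (6.28, 7.08 and 37.9 CPM), while Ptprc stayed at or under 17 counts. The sums were thus higher in HET and KO than in WT at day 14, as the sensors were, and overlapped between WT and KO at day 4, where Ifih1, Dhx58, Irf7 and Irf9 differed most. Single markers did not all follow the sum. At day 14 mean Csf1r was 0.590 CPM in WT, 0.308 CPM in HET and 0.0566 CPM in KO, and mean Lyz2 was 1.27, 0.0761 and 2.16 CPM. Of the 4 markers tested, 1 was higher and 1 lower in HET against WT, and 2 were higher and 1 lower in KO. The 4 endothelial markers summed to 11.3 to 14.4 CPM for WT and 0.634 to 0.799 CPM for KO at day 4. WT was thus above KO, as for Ifih1, Dhx58, Irf7 and Irf9. Most of the WT sum was Kdr (mean 9.24 CPM in WT and 0.294 CPM in KO) and Cdh5 (3.28 and 0.0497 CPM). Pecam1 did not follow it, at 0.203 CPM in WT and 0.294 CPM in KO. Of the 3 endothelial markers tested, 0 were higher and 2 lower in KO at day 4. At day 14 the sums were 3.41 to 4.25 CPM for WT, 1.37 to 2.44 CPM for HET and 2.93 to 4.43 CPM for KO. The sum of the 4 epithelial markers went the other way at day 4, at 0.137 to 0.338 CPM for WT and 4.01 to 4.21 CPM for KO. Most of that KO sum was Krt18 (mean 0.129 CPM in WT and 4.04 CPM in KO), while Epcam had 0.0629 CPM in WT and 0 in KO. Of the 2 epithelial markers tested, 1 was higher and 1 lower in KO at day 4. At day 14 the epithelial sums were 0.198 to 1.78 CPM. The 7 fibroblast markers summed to 732.9 to 739.2 CPM for WT and 1097 to 1106 CPM for KO at day 4. At day 14 they summed to 877.8 to 923.4 CPM for WT, 2189 to 2264 CPM for HET and 1691 to 1712 CPM for KO. The order of these sums was that of Dhx58, Irf7 and Stat2 at that day, but not that of every marker. Col3a1 and Pdgfra had it. Mean Vim was highest in KO (679.7 CPM in WT, 1056 CPM in HET and 1507 CPM in KO), as was S100a4. Mean Pdgfrb was lowest in KO (100.2, 141.9 and 16.1 CPM). The fibroblast marker Col1a2 had a mean of 489.5 CPM in HET against 0.310 CPM in WT and 0.117 CPM in KO, and Thy1 held at most 16 counts in a group. The part of these markers in the results was not tested.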

How the data were processed

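RNA sequencing libraries of 15 samples were used, grouped by genotype and day from the sample labels. The submitters' processing notes name TopHat2 2.1.0, HTSeq and DESeq2 as tools and GRCm38.p4 as the build. For the version of HTSeq, the annotation release and the strand setting, the value is not given in the sources used here. The deposited values are raw counts per gene, and 13544 of 46603 IDs held no count. Per the labels' protocols the library kit was TruSeq RNA v2, which does not mark strand. Symbols and exon lengths came from GENCODE M21 (GRCm38).

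The counts were tested with edgeR 4.0.16 (R 4.3.3): filterByExpr, TMM scaling, robust quasi-likelihood F tests on all 15 libraries, 15296 genes, Benjamini-Hochberg adjustment within each of 7 comparisons and a threshold of 0.05. The SE is the absolute log2 fold change divided by the square root of F. CPM uses TMM-scaled library sizes, and log2 CPM a prior count of 2. Floors of 3 counts and 95% intervals cover counting error only. The script was tested on simulated data. DESeq2 1.42.0, other scalings and filters, the groups compared alone, a replicate block and leaving out each library were tried. By rule, the named non-members of each pathway list were up to 2 higher and 2 lower genes of smallest adjusted p at day 14. The 2 genes most correlated with each member were also named, and not all are printed. Marker and ligand genes, Mx1, Cmpk2, Ifit1 and Ifit2 were named outside this rule. Mx1 and Cmpk2 were picked from their values, as targets with no count in KO at day 4. The members and lists were chosen with earlier results of these data known. 1 gene of a pathway list is not reported here. Protein sequences and the Dhx58 promoter were not used here. The labels do not say whether the replicate numbers pair samples. Deviations of same-numbered libraries had correlations of -0.52 to 0.56 over 30 pairs, and 2 were above 0.1. Both extremes were between WT and HET at day 14, groups with a wide spread between libraries, so these values cannot settle pairing.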

Additional observations from a re-analysis of the deposited data

Results flagged for a closer look

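The KO against WT difference of 6 members differed between day 4 and day 14 by a test of the difference itself (edgeR, adjusted over all genes tested). The log2 difference was 1.04 for Ddx58 (adjusted p = 1.37e-05 by edgeR), 4.26 for Ifih1 (4.72e-13), 3.12 for Dhx58 (4.76e-09), 3.40 for Irf7 (3.47e-11), 1.62 for Irf9 (4.8e-11) and -1.05 for Irf1 (1.14e-07), each from 3 libraries per group. In every KO library, Ddx58, Ifih1, Dhx58 and Irf7 were below all WT libraries at day 4 and above them at day 14. For Ddx58 the day 4 difference was small (log2 fold change -0.25), and its call was lost when some single libraries were left out. Irf9 stayed below WT at both days, and Irf1 went from above WT to below it.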

How the results depend on the processing

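No count of genes or of members called changed by more than 1.5 times under any alternative run. With a replicate block the members called were 8, 7, 7, 8, 7, 7 and 6 in the 7 comparisons, as without it, and the genes called 9551, 8783, 8999, 10538, 11310, 9241 and 9803. Leaving out 1 library gave 7 to 8 members in KO against WT at day 4 and 6 to 7 in KO against HET. Of 873 repeated member fold changes, 851 kept their call and its direction or stayed uncalled, 17 lost the call, 5 gained it and 0 reversed. A change of sign counted as reversed only where the value passed under either setting. Upper-quartile scaling, which shifted the median of all genes by 0.16 over time in WT, by 0.10 in KO against WT at day 4 and by -0.14 in the interaction, ended the calls of Irf1 in HET against WT (0.13, edgeR adjusted p = 0.135), Ddx58 at day 4 (-0.16, 0.196) and Irf3 at day 4 (-0.23, 0.0625). It also made a call of Mavs at day 4 (0.20, 0.0279) and of the Stat2 interaction (-0.26, 0.00901). With only the groups compared, Irf1 in HET against WT did not pass (0.22, edgeR adjusted p = 0.0723), and Ifih1 over time in WT did (-0.19, 0.0327). Of 3783 repeats for other named genes 1 reversed: Tbk1 over time in WT was at 0.014 under upper-quartile scaling (edgeR adjusted p = 0.769). Of 679 repeated list counts 1 moved by more than 1.5 times: without KO replicate 1 of day 14, 1 rather than 3 of the other IRF genes and IRF2-binding proteins rose over time in KO. Fewer than 60 reads per KO library of day 4 limit the precision for Dhx58 and Irf7.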

Other observations

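The ISGF3 targets did not all follow Irf7 in WT cells. Chosen after their values were seen, Rsad2 fell from day 4 to day 14 in WT (log2 fold change -1.95 ± 0.09, edgeR adjusted p = 1.34e-11) and Ifit1 fell too (-1.10 ± 0.08, edgeR adjusted p = 7e-09), while Irf7 rose by 2.90 ± 0.09. Ifit2 was the 1 target higher in KO at day 4, by 0.61 ± 0.08 (edgeR adjusted p = 3e-06), with 41.3 CPM in WT and 62.8 CPM in KO, where Ifit1 was at 80.1 CPM in WT and 0.963 CPM in KO.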
